A study of Mus musculus with 6 samples.

Results

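The interferon-inducible GTPases examined here were 10 mouse genes of 2 families, the guanylate-binding proteins Gbp2, Gbp3, Gbp6, Gbp7 and Gbp9 and the immunity-related GTPases Irgm1, Irgm2, Igtp, Iigp1 and Tgtp2. They were chosen by gene name with earlier results of these data known, so comparisons of them with all genes are a description. All 10 were found among the 28752 genes of the deposited expression table. RNA sequencing compared 3 vector samples with 3 samples overexpressing circEZH2_005, a circular RNA of the Ezh2 gene, from an adenovirus. All 6 samples were intestinal crypt stem cells that underwent hypoxia/reoxygenation (H/R), with 4 h of hypoxia at 2% O2 after 72 h of infection by the sample labels, so no sample was kept in normal oxygen. The genotype label was WT in the vector samples and circEZH2_005 overexpression in the others. The paper's general methods describe Lgr5+ intestinal stem cells sorted from mice that carry Lgr5-GFP and cultured as organoids. Its text on the sequencing speaks only of intestinal crypt cells. The study used male animals, and the age of the mice these cells came from is not given in the sources used here. In this strain GFP marks the cells that express Lgr5, the receptor of the crypt base stem cell, and the circEZH2_005 adenovirus also carried GFP. The paper describes its experiments in general as biological replicates, but the labels do not say whether the 3 sequenced samples of a group came from separate cultures or animals. The p-values therefore measure only the spread between these samples, which may be technical.

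Guanylate-binding proteins and immunity-related GTPases are soluble proteins that cells make in large amounts when interferon-γ binds its receptor. The receptor activates the kinases Jak1 and Jak2, and their signal reaches promoters at GAS elements and at ISRE elements, to which Irf1 binds. The GTPases assemble on the vacuoles and membranes of intracellular microbes such as Toxoplasma and Chlamydia, break them open and expose their content to autophagy adaptors and inflammasomes. Irgm1, Irgm2 and Igtp (also named Irgm3) sit on the cell's own membranes and keep the effector GTPases, among them Iigp1 (Irga6) and Tgtp2 (Irgb6), inactive there. In the gut, lymphocytes of the epithelium are a known source of interferon-γ, and epithelial cells respond to it.

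Promoters were examined first, since GAS and ISRE letters are the sequence feature that links these genes to interferon signalling. RefSeq promoters of build GRCm38.p6, 300 bases around a start base, were matched by symbol to 7 of the 10 genes. Gbp6, Gbp9 and Iigp1 were not matched. The stretches printed here run 120 bases, from 110 bases before the start base to 9 after it, 5′ to 3′ on the gene's own strand, and capitals mark ISRE letters (GAAANNGAAA on either strand) and GAS letters (TTCNNNGAA, its own reverse complement). Their positions are chr3:142620553-142620672 for Gbp2, chr3:142559934-142560053 for Gbp3 and chr3:142530226-142530345 for Gbp7, all on the plus strand. Those of Irgm2 and Igtp are chr11:58214867-58214986 and chr11:58199446-58199565, on the plus strand. Those of Irgm1 and Tgtp2 are chr11:48871411-48871530 and chr11:49064203-49064322, on the minus strand.
Gbp2: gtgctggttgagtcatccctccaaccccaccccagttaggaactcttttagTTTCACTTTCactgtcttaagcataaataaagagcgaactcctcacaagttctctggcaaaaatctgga
Gbp3: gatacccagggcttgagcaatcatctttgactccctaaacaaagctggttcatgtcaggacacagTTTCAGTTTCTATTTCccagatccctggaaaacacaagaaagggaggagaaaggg
Gbp7: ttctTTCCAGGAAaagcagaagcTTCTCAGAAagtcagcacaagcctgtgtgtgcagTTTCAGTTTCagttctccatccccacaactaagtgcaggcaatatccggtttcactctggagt
Irgm1: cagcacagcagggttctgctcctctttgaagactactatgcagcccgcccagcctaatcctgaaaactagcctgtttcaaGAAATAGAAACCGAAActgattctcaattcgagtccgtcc
Irgm2: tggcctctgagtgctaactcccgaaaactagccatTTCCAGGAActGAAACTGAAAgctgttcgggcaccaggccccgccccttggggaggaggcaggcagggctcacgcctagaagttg
Igtp: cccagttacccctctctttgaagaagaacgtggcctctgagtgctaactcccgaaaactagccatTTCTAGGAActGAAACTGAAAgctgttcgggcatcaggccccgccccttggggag
Tgtp2: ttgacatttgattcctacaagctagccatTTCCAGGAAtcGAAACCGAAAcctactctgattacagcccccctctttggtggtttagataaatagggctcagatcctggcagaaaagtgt

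All 7 promoters held ISRE letters, and 4 of the 7 (Gbp7, Irgm2, Igtp and Tgtp2) also held GAS letters. Over all 32851 RefSeq promoters of the same length, 3.44% held ISRE letters, 8.30% held GAS letters and 0.454% held both. The ISRE letters began between 70 and 24 bases before the start base. In Gbp3 and in Irgm1, 2 ISRE matches overlapped, and a second listed start of Gbp3 held neither motif. Gbp7 had 2 GAS matches, 106 and 87 bases before its start, farther up than its ISRE. In Irgm2, Igtp and Tgtp2 the GAS letters were followed after 2 bases by the ISRE letters. This order and spacing, looked for after the sequences were seen, was found in 5 promoters of the 32851 (0.0152%), and those belonged to Irgm2, Igtp, Tgtp2 and their relatives Tgtp1 and Gm12185. Igtp and Irgm2 shared 97 of 100 bases around their ISRE, whereas each shared 57 or 58 of 100 with Tgtp2, so the promoters of Igtp and Irgm2 are nearly one sequence and not separate examples. A match is a description of letters and not a measured binding site.

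**Figure D1:**
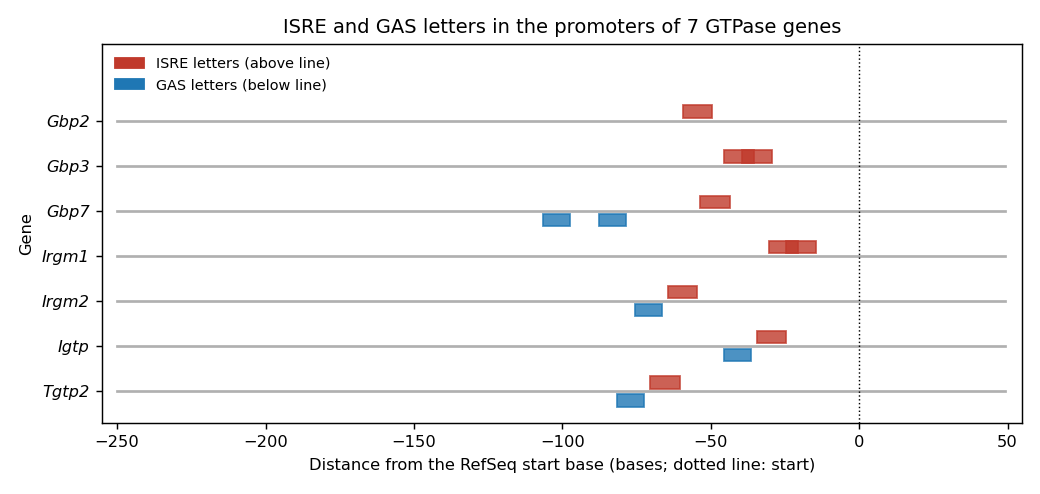
Positions of ISRE letters (red, above each line) and GAS letters (blue, below) in the 300-base promoters of 7 GTPase genes, against the distance from the RefSeq start base in bases. ISRE letters lie within 70 bases before the start in all 7, and in Irgm2, Igtp and Tgtp2 the GAS letters sit next to them.

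The authors deposited for each gene a read count and its FPKM, a level scaled for transcript length and library size. Total counts were between 71506487 and 79919893 per sample, and 3 counts, the limit that a count of 0 allows for counting error alone, came to between 0.0377 and 0.0419 CPM, the counts scaled to a common library size. The TMM factors of this scaling ranged from 0.931 to 1.04, and the mitochondrial share was 7.70 to 8.20% of counts. Of the 28752 genes, 18348 passed the filter on low counts and were tested, all 10 GTPases included. Epithelial markers were high in every sample, with a summed level of 7271 to 10971 CPM for 7 genes. Lgr5, the marker of the sorting in the paper's general methods, was measured at 7.70 to 18.3 CPM. Markers of enterocytes, the differentiated absorptive cells, summed to 10404 to 19072 CPM. Markers of T and NK cells were found in all 6 samples too.

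The library labelled vector 2 stood apart from vector 1 and vector 3 in these genes, and counts of genes that passed are therefore also given without it. Vector 2 was singled out by the values of these same genes, so leaving it out raises their fold changes and narrows the vector spread. Adjusted p-values and counts without vector 2 are thus given as a description, not as support for a difference between the groups. All 10 GTPases were higher in vector 2 than in both other vector samples, by 2.64-fold (Irgm1) to 10.2-fold (Iigp1) over the mean of vector 1 and vector 3. Over the tested genes the median of the same ratio was 0.996. Of 9263 tested genes with a mean of at least 10 CPM, 30 (0.324%) were more than 4-fold higher in vector 2, bounds set after the data were seen. Gbp2, Gbp3, Gbp6, Gbp7, Iigp1 and Tgtp2 were among the 30, with 3 other Gbp and Irg genes and the T cell markers Ccl5, Cd3e and Gzmb.

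The 10 GTPases were higher in circEZH2_005 samples than in vector samples, with log2 fold changes from 1.02 (Irgm1) to 2.63 (Gbp2) and a median of 1.62, against a median of 0.00 over all genes tested. None passed an adjusted p of 0.05 in the quasi-likelihood test of edgeR, with p-values adjusted by the Benjamini-Hochberg method over all genes (0 of 10, where 2.69% of all genes tested were higher and 0.986% lower). An unadjusted p under 0.05 was met by 8 of 10, where 4346 of the 18348 genes tested met it in either direction. That share also stands beside the later counts at this p over all 6 samples. These 8 GTPases were also more than 2-fold higher, a rule that 6.22% of genes tested met as higher. DESeq2 called 2 of the 10 (Gbp2 and Gbp9), limma on log2(FPKM + 1) called 1 (Gbp2) and limma on log2(FPKM + 0.1) called none. Without vector 2, all 10 passed the adjusted p of 0.05, with log2 fold changes from 1.65 to 4.25, where 5.74% of 19145 genes tested did so. These shares of all genes, over all 6 samples and without vector 2, also stand beside the later edgeR counts at this adjusted p. Leaving out any other sample gave 0 of 10. An exact permutation test of 3 samples against 3 cannot go below 0.1, and gave 0.1 for 8 of the genes and 0.2 for Gbp3 and Igtp.

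**Figure D2:**
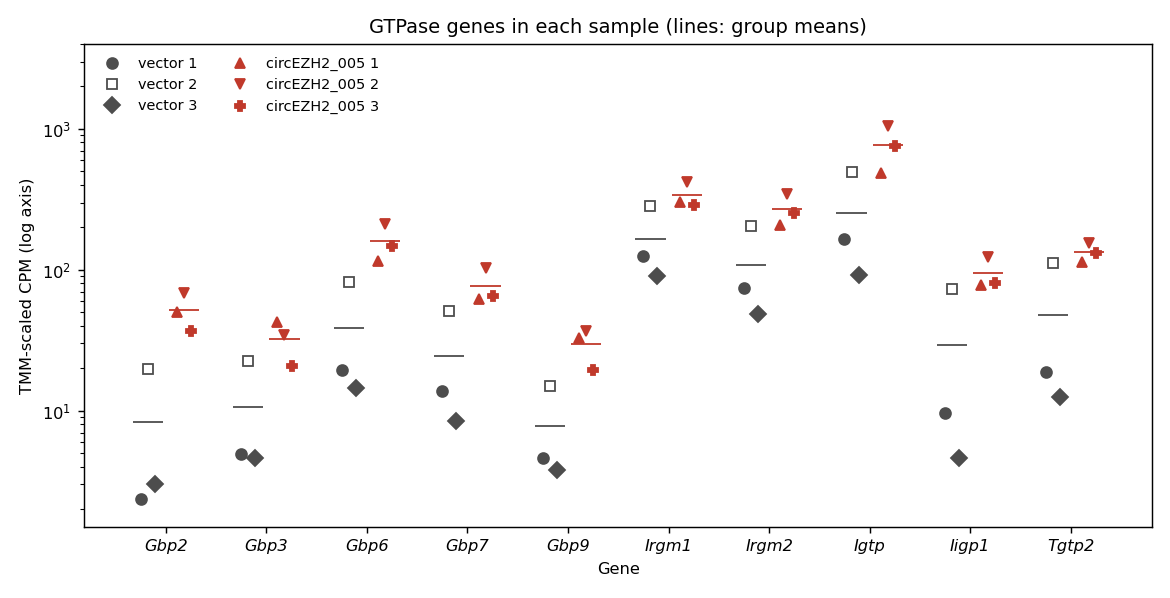
TMM-scaled CPM (log axis) of the 10 GTPase genes in each of the 3 vector samples (grey, vector 2 open) and the 3 circEZH2_005 samples (red), with lines at the group means. In every gene vector 2 lies between the circEZH2_005 samples and the other vector samples, or among the circEZH2_005 samples (Gbp3 and Igtp).

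Among the 5 guanylate-binding proteins of the 10 genes, Gbp2 (chromosome 3, 142620602 to 142638008, plus strand, GRCm38) had the largest fold change. Its level was 2.38, 19.7 and 3.04 CPM in vector samples 1 to 3 and 50.2, 68.0 and 36.8 CPM in circEZH2_005 samples 1 to 3. The 3 circEZH2_005 samples were all above vector 2 and at least 12.1 times the higher of the other vector samples. The log2 fold change of Gbp2 was 2.63 (standard error, SE, 0.77, adjusted p = 0.0940), and 4.25 (SE 0.31, adjusted p = 0.00179) without vector 2. Gbp2 is an isoprenylated protein that coats the vacuoles of Toxoplasma and recruits its relatives to them.

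Gbp3 (chromosome 3, 142560026 to 142573209, plus strand) had 4.90, 22.6 and 4.65 CPM in the vector samples and 42.7, 34.2 and 20.6 CPM in the circEZH2_005 samples. Here the groups overlapped, since circEZH2_005 sample 3 was below vector 2. This gave a log2 fold change of 1.60 (SE 0.62, adjusted p = 0.171) and 2.77 without vector 2 (adjusted p = 0.00485). Gbp7 (chromosome 3, 142530342 to 142550149, plus strand), of the same gene cluster, had 13.9, 51.4 and 8.51 CPM in the vector samples and 62.2, 103 and 64.7 CPM in the circEZH2_005 samples. The groups of Gbp7 did not overlap, with the lowest circEZH2_005 sample at 1.21 times vector 2. Its log2 fold change was 1.64 (SE 0.61, adjusted p = 0.159), and 2.78 without vector 2 (adjusted p = 0.00477). The gene model Gm43802 covers 11.3% of the exonic bases of Gbp7 but had at most 10 counts in a sample.

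Gbp6 and Gbp9 lie in a second cluster on chromosome 5 (105270702 to 105293696 and 105077630 to 105110277, minus strand, as the deposited table gives them). Gbp6 had the highest CPM of the Gbp genes, at 19.5, 82.0 and 14.5 in the vector samples and 116, 212 and 149 in the circEZH2_005 samples. All circEZH2_005 samples were above vector 2, with a log2 fold change of 2.04 (SE 0.63, adjusted p = 0.105) and of 3.23 without vector 2 (adjusted p = 0.00310). Of the 100-base windows of Gbp6 transcripts, 59.0% were also found in the gene model Gm43302, which overlaps 29.0% of the exonic bases of Gbp6, and 36.3% in Gbp10. In all, 64.5% were found in some other gene, so reads may have been split among them. Gbp9 had 4.64, 14.9 and 3.77 CPM in the vector samples and 32.6, 36.7 and 19.4 CPM in the circEZH2_005 samples. It had the smallest p of the 10 genes (0.00675), with a log2 fold change of 1.93 (SE 0.52, adjusted p = 0.0797) that became 2.82 (adjusted p = 0.00404) without vector 2.

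The regulatory GTPases Irgm1, Irgm2 and Igtp had log2 fold changes of 1.02 to 1.60, and Igtp was the most abundant of the 10 genes. Irgm1 (chromosome 11, 48861968 to 48871683, minus strand) had 124, 283 and 90.7 CPM in the vector samples and 301, 422 and 287 CPM in the circEZH2_005 samples. The lowest circEZH2_005 sample was 1.01 times vector 2, so vector 2 lay just under the lowest circEZH2_005 sample. Irgm1 had the smallest log2 fold change of the 10, at 1.02 (SE 0.40, adjusted p = 0.172), and 1.65 (adjusted p = 0.00689) without vector 2.

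Irgm2 (chromosome 11, 58199618 to 58222782, plus strand) had 74.2, 204 and 48.5 CPM in the vector samples and 208, 343 and 255 CPM in the circEZH2_005 samples. As for Irgm1, vector 2 lay just under the lowest circEZH2_005 sample. Its log2 fold change was 1.3 (SE 0.49, adjusted p = 0.162), and 2.13 without vector 2 (adjusted p = 0.00610). Igtp (chromosome 11, 58199556 to 58207591, plus strand) had 165, 495 and 92.5 CPM in the vector samples and 482, 1051 and 753 CPM in the circEZH2_005 samples. The groups of Igtp overlapped, with circEZH2_005 sample 1 below vector 2. Its log2 fold change was 1.60 (SE 0.59, adjusted p = 0.152), and 2.56 (adjusted p = 0.0105) without vector 2. Igtp overlaps the Irgm2 model on the same strand and shares 162 exonic bases with it, which are 8.01% of the exonic bases of Igtp and 4.39% of those of Irgm2.

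The effectors Iigp1 and Tgtp2 also differed widely among the vector samples. Iigp1, on chromosome 18, had 9.67, 73.3 and 4.65 CPM in the vector samples and 78.5, 123 and 80.9 CPM in the circEZH2_005 samples. Vector 2 was 10.2 times the mean of the other vector samples, and the circEZH2_005 mean was 1.28 times vector 2. For Iigp1 the log2 fold change was 1.69 (SE 0.89, adjusted p = 0.302), and 3.72 (SE 0.37, adjusted p = 0.00374) without vector 2. Tgtp2 (chromosome 11, 49057194 to 49064206, minus strand) had 18.9, 112 and 12.5 CPM in the vector samples and 114, 155 and 131 CPM in the circEZH2_005 samples. These samples were close to each other, the highest at 1.37 times the lowest, and vector 2 was just under them. For Tgtp2 the log2 fold change was 1.48 (SE 0.74, adjusted p = 0.276), and 3.09 (SE 0.22, adjusted p = 0.00179) without vector 2. Of the 100-base windows of Tgtp2 transcripts, 76.8% are found in Tgtp1, so the level of Tgtp2 may include reads of that copy.

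**Figure D3:**
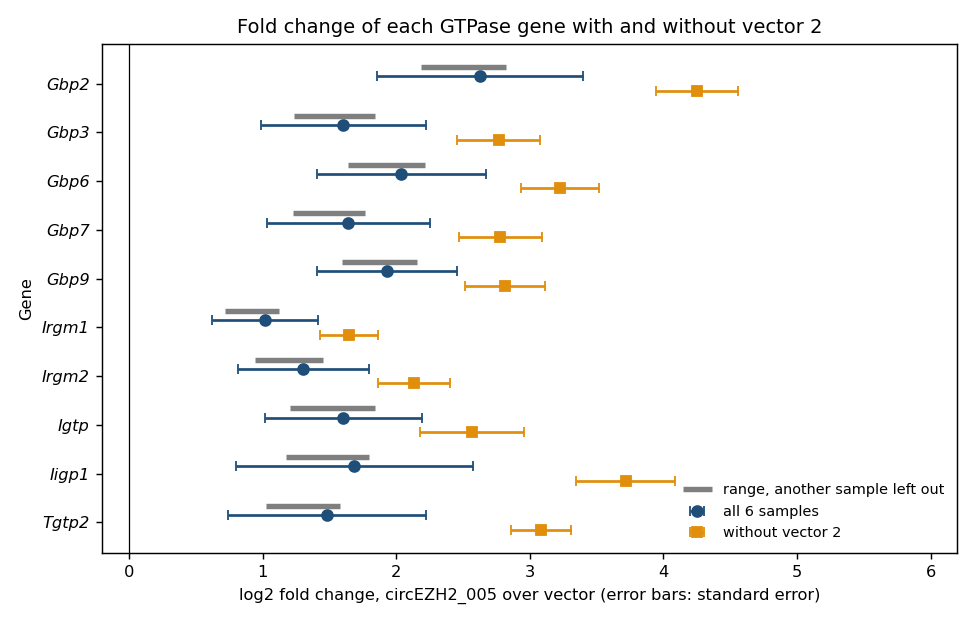
The log2 fold change (circEZH2_005 over vector) of each GTPase gene with its standard error, over all 6 samples (blue circles) and without vector 2 (orange squares), and the range over fits that left out one of the other 5 samples (grey bars). Every value is above 0, from 0.72 for Irgm1 to 4.25 for Gbp2, and the values without vector 2 are the highest for each gene.

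Of the 10 genes, 8 did not overlap between the groups, with every circEZH2_005 sample above every vector sample, where 16.4% of all genes tested did so. Among the circEZH2_005 samples, sample 2 was the highest in 9 of the 10 genes, and Gbp3 was highest in sample 1. The circEZH2_005 mean over vector 2 was 1.44 to 2.63 for the 5 Gbp genes, 1.19 to 1.54 for Irgm1, Irgm2 and Igtp, and 1.19 to 1.28 for Iigp1 and Tgtp2. Log2 CPM of the genes followed each other over the 6 samples, with Pearson r of 0.893 (Gbp3 and Igtp) to 0.997 (Gbp7 and Irgm1) and a median of 0.978 over the 45 pairs. The 6 samples share the 2 groups and vector 2, so these correlations describe one common pattern.

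Levels were compared between genes in FPKM, which is per transcript length. Igtp was the highest of the 10 in all 6 samples, at 115 ± 99.9 FPKM (SD, n = 3) in vector samples and 324 ± 106 FPKM (SD, n = 3) in circEZH2_005 samples, and was 2.93 to 5.59 times the next gene of the same sample. Igtp, Irgm1, Irgm2 and Tgtp2 were the 4 highest in every sample. Irgm2 (62.9 ± 13 FPKM), Irgm1 (50.2 ± 9.45 FPKM) and Tgtp2 (39.3 ± 4.22 FPKM) followed Igtp in circEZH2_005 samples (SD, n = 3). The ranges of Irgm2 and Irgm1 over these samples overlapped, but within each circEZH2_005 sample and within vector 2 Irgm2 was above Irgm1. In vector samples 1 and 3 Irgm1 was above Irgm2. Gbp6 and Gbp2 reached 23.0 ± 5.97 and 17.8 ± 5.11 FPKM in circEZH2_005 samples, Iigp1 14.0 ± 3.14 FPKM, Gbp7 11.8 ± 3.06 FPKM and Gbp3 8.75 ± 3.41 FPKM (SD, n = 3), and neighbours in this order overlapped. Gbp9 was the lowest in all 6 samples, at 1.39 ± 1.13 FPKM in vector and 4.99 ± 1.57 FPKM in circEZH2_005 samples (SD, n = 3). In vector samples the SD was close to the mean or above it for most genes, as for Gbp2 with 3.10 ± 3.66 FPKM (n = 3), and vector 2 was the highest of the 3 in all 10 genes.

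The remaining genes of both families were measured beside the members. Of 26 further family genes listed, 21 were in the table and 19 were tested. Gbp8 was the one gene that rose at an adjusted p under 0.05 (1 of 19, where 2.69% of all genes tested rose). Its level was 3.12, 8.71 and 3.95 CPM in the vector samples and 34.2, 50.5 and 29.0 CPM in the circEZH2_005 samples. Vector 2 was thus well below the circEZH2_005 samples in Gbp8, with a log2 fold change of 2.85 (SE 0.41, adjusted p = 0.0214), and all 8 alternatives other than leaving out a sample also called it. When 1 sample was left out in turn, Gbp8 passed in 3 of 6 fits, with adjusted p from 0.00254 to 0.110. A further 9 genes were more than 2-fold higher with an unadjusted p under 0.05, namely Gbp4, Gbp5, Gbp10, Gbp11, Ifi47, Gm4951, 9930111J21Rik1, 9930111J21Rik2 and Gm8995. Of these, Gbp11 was low, at 0.0414 to 0.837 CPM over the 6 samples. Its groups overlapped, with circEZH2_005 sample 1 (0.252 CPM) below vector 2 (0.308 CPM). Without vector 2, 15 of the 19 passed the adjusted p of 0.05, where 5.74% of all genes tested were higher at it. Gbp2b, Tgtp1, Gm4841, Gm12250 (Irgb10), Gm12185 and F830016B08Rik had log2 fold changes of 0.93 to 2.22, with adjusted p from 0.226 to 0.560. Tgtp1, the copy of Tgtp2, had 17.0, 109 and 10.9 CPM in the vector samples and 119, 166 and 135 CPM in the circEZH2_005 samples, nearly the levels of Tgtp2. Irgq, an atypical gene of the family, had 25.5 to 31.6 CPM in the 6 samples and a log2 fold change of -0.10 (SE 0.09, adjusted p = 0.569). The giant GTPase gene Gvin1 and its relative Gm4070 had log2 fold changes of 0.25 and 0.27, with adjusted p of 0.362 and 0.363. Irgc1 and Gm12187 were too low to be tested.

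Genes of interferon signalling were ordered by role. Of 63 genes listed, 58 were in the table and 53 were tested, of which 8 rose and 1 fell at an adjusted p under 0.05, with a median log2 fold change of 0.80 over the 53. Over all genes tested, 2.69% rose and 0.986% fell. Without vector 2, 35 of the 53 rose and 1 fell, where 5.74% of all genes tested rose. None of the 53 rose without vector 1, vector 3, circEZH2_005 sample 2 or circEZH2_005 sample 3. Among ligands, Ifng, which encodes interferon-γ, had 0.193, 1.16 and 0.102 CPM in the vector samples and 4.85, 3.99 and 1.10 CPM in the circEZH2_005 samples. Vector 2 was therefore above circEZH2_005 sample 3. The log2 fold change of Ifng was 2.77 (SE 0.91, adjusted p = 0.122), and 4.48 without vector 2 (adjusted p = 0.0159). Il18, an epithelial cytokine that stimulates interferon-γ release, fell by 1.91 on the log2 scale (SE 0.27, adjusted p = 0.0204), from 96.7, 53.6 and 80.9 CPM to 16.3, 27.4 and 17.6 CPM. Il18 did not pass in edgeR without vector 1, vector 3 or circEZH2_005 sample 3. Ifnl2, Ifnl3, Ifne, Ifnk and Il12b were too low to be tested.

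Receptor genes had small fold changes. The 6 receptor chains, Ifngr1, Ifngr2, Ifnar1, Ifnar2, Ifnlr1 and Il10rb, had log2 fold changes from -0.27 (Ifngr1) to 0.37 (Ifnar2). None passed in edgeR (2 of 6 at an unadjusted p under 0.05), DESeq2 or limma. The kinases Jak1, Jak2 and Tyk2 had log2 fold changes of 0.23, 0.51 and 0.17. None of the 3 passed in edgeR (2 at an unadjusted p under 0.05) or limma, and DESeq2 called Jak2. Without vector 2, none of these receptor chains and kinases passed in edgeR (2 of 6 and 2 of 3 at an unadjusted p under 0.05).

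Among transcription factors, Irf1, Irf8 and Stat3 rose. Irf1, which is induced by interferon-γ and binds ISRE elements, had 180, 278 and 151 CPM in the vector samples and 363, 494 and 445 CPM in the circEZH2_005 samples. The groups did not overlap, and the log2 fold change was 1.10 (SE 0.23, adjusted p = 0.0472). Irf8 had a log2 fold change of 1.06 (SE 0.17, adjusted p = 0.0286) and Stat3 of 0.54 (SE 0.11, adjusted p = 0.0496). Stat2, Irf7, Irf9, Batf2 and Irf2 had log2 fold changes of 1.05, 1.29, 0.41, 0.80 and 0.18, with adjusted p from 0.0700 to 0.297. Stat2, Stat3, Irf1, Irf7, Irf8 and Irf9 passed without vector 2.

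Inhibitors of the pathway included Socs1, an interferon-induced brake on the Jak kinases. Socs1 had 0.953, 4.15 and 0.613 CPM in the vector samples and 6.89, 12.1 and 7.72 CPM in the circEZH2_005 samples, with a log2 fold change of 2.23 (SE 0.67, adjusted p = 0.10). Usp18, which blocks the type I receptor, had a log2 fold change of 1.66 (adjusted p = 0.119), and Socs3, Ptpn1, Ptpn2, Ptpn6 and Pias1 had values of -0.02 to 0.50. None of the 7 passed in edgeR (3 at an unadjusted p under 0.05), while DESeq2 called Ptpn6, limma on log2(FPKM + 1) called Socs1, and limma on log2(FPKM + 0.1) called none. Without vector 2, edgeR called Socs1, Socs3 and Usp18 higher (3 of 7).

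Other interferon targets were mostly higher. Of 26 tested, 5 rose (Ido1, Cd274, Psmb10, Tapbp and B2m) and all 26 had a log2 fold change above 0, with a median of 1.03. Ido1, a tryptophan-degrading enzyme, had 2.44, 14.3 and 3.37 CPM in the vector samples and 98.6, 140 and 71.3 CPM in the circEZH2_005 samples. Its circEZH2_005 samples were all several times vector 2, with a log2 fold change of 3.94 (SE 0.67, adjusted p = 0.0310). Cd274, which encodes the checkpoint ligand PD-L1, had a log2 fold change of 2.99 (adjusted p = 0.0342) and the immunoproteasome subunit Psmb10 of 0.57 (adjusted p = 0.0372). Without vector 2, 24 of the 26 passed.

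Genes whose products act with the GTPases were counted next. Of 22 partner genes, such as the ATG8 conjugation and prenylation genes, Sqstm1 and Pim1 rose (2 of 22), and the median log2 fold change was 0.09. Sqstm1, which encodes the autophagy adaptor p62, had a log2 fold change of 0.49 (SE 0.07, adjusted p = 0.0232), with 79.7 to 82.4 CPM in vector and 109 to 119 CPM in circEZH2_005 samples. Vector 2 was the lowest of the vector samples in Sqstm1. Pim1, a kinase that phosphorylates human GBP1, had a log2 fold change of 0.74 (SE 0.12, adjusted p = 0.0263), and Rab4b of 0.52 (adjusted p = 0.0587) was the next by p. Without vector 2, 5 of 22 passed (Pim1, Rnf213, Sqstm1, Trim21 and Ube2l6). No partner gene rose in edgeR without vector 1, vector 3, circEZH2_005 sample 2 or circEZH2_005 sample 3. DESeq2 called 6 partner genes higher and each limma fit called 3, with Pim1 and Sqstm1 among them each time. Of 11 inflammasome and cell death genes, none passed in edgeR (6 at an unadjusted p under 0.05) or limma, and DESeq2 called Aim2, Casp4, Gsdmd and Zbp1. Without vector 2, edgeR called Apol9a, Apol9b and Zbp1 (3 of 11). The smallest p values there were those of Zbp1, Gsdmd and Casp4, with log2 fold changes of 1.70, 0.74 and 0.59 and adjusted p of 0.0667, 0.0844 and 0.116.

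**Figure D4:**
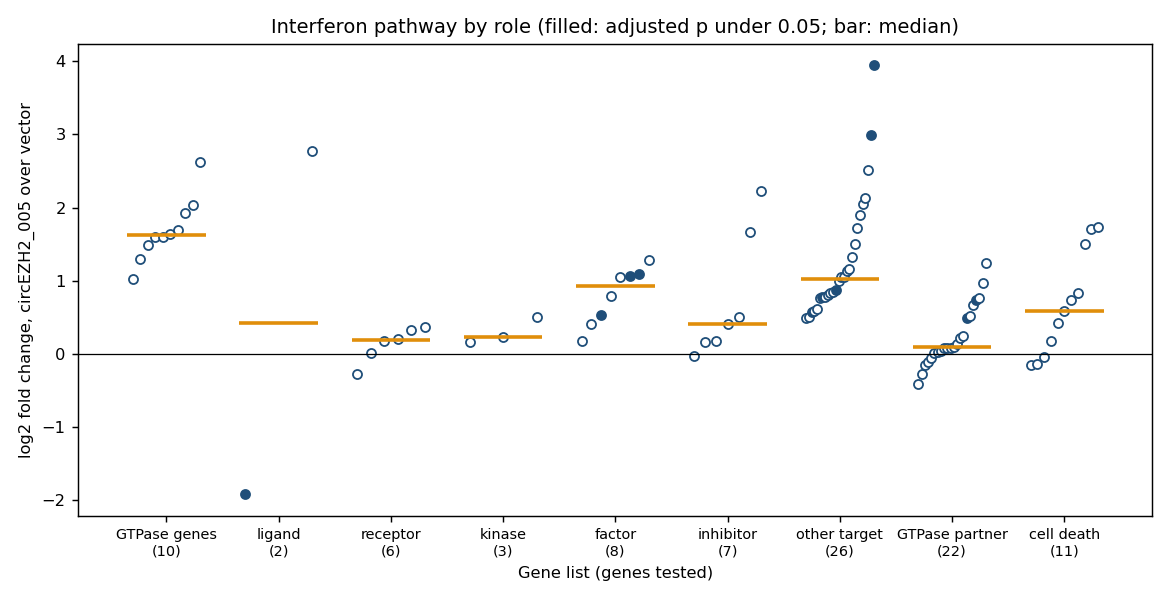
The log2 fold change (circEZH2_005 over vector) of the 10 GTPase genes and of tested genes of interferon signalling, GTPase partners and cell death, by role; filled points have an adjusted p under 0.05 and bars mark the median of each list. The median is 1.62 for the GTPase genes, 1.03 for other targets, and 0.09 to 0.23 for partners, receptors and kinases.

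The genes most like the GTPases in pattern were sought among 9241 tested genes outside the family with a mean of at least 10 CPM, by Pearson r over the 6 samples with the mean log2 CPM of the 10. Among the 8 highest were Pcgf5, Psmc5, Tnfrsf14, Stat2, Herc6, Zbp1 and Gm8714, with r from 0.997 to 0.991. As many as 473 of the 9241 had r above 0.9, so a high value was common over these 6 samples. These genes differed in size of change, from a log2 fold change of 0.26 in Tnfrsf14 and Psmc5 to 2.14 in Gm8714.

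Markers of other cells were summed in each sample beside the GTPases, since the cells were measured in bulk. The 10 GTPases together came to 437, 1357 and 283 CPM in vector samples 1 to 3 and to 1487, 2548 and 1797 CPM in circEZH2_005 samples 1 to 3. The 11 markers of T and NK cells summed to 184, 724 and 221 CPM in the vector samples and 1996, 1566 and 1141 CPM in the circEZH2_005 samples. Vector 2 was thus 3.57 times the mean of the other vector samples in T and NK cell markers and 3.77 times in the GTPases. Within the circEZH2_005 group the order of the sums differed, since sample 1 had the highest marker sum and the lowest GTPase sum. Igtp alone made up 482, 1051 and 753 CPM of the GTPase sums in circEZH2_005 samples 1 to 3. By gene, sample 1 was the lowest of these samples in 6 of the GTPases and sample 3 in 4. The mean log2 CPM of the 10 GTPases was 6.69, 7.22 and 6.62 in circEZH2_005 samples 1 to 3, lowest in sample 3. All 11 markers were more than 2-fold higher in circEZH2_005 samples with an unadjusted p under 0.05, with no overlap between groups and a median log2 fold change of 2.02. Of all genes tested, 6.22% met that rule of fold and p, and 16.4% had every circEZH2_005 sample above every vector sample. None passed the adjusted p in edgeR, where DESeq2 called 9 and limma on log2(FPKM + 1) called 3, and all 11 passed without vector 2. The defining markers Cd3e, Cd3g and Cd3d had 1.59 to 22.3 CPM in vector and 10.8 to 53.8 CPM in circEZH2_005 samples, and none was at 0 in any sample. Their part in the GTPase values was not tested, and in bulk samples fewer cells of a type and less RNA per cell cannot be told apart.

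The other lists were summed in the same way. Markers of macrophages and dendritic cells summed to 33.8 to 45.7 CPM in vector and 52.7 to 81.0 CPM in circEZH2_005 samples, and 1 of the 9, Itgax, rose. Itgax did not pass in edgeR without vector 1, vector 3, circEZH2_005 sample 1 or circEZH2_005 sample 2. Markers of B and plasma cells summed to 7.98 to 15.5 and 15 to 66.1 CPM, those of fibroblasts and muscle to 3.96 to 6.48 and 1.65 to 8.57 CPM, and those of endothelium to 1.09 to 2.41 and 3.29 to 6.49 CPM. Myh11 of smooth muscle was at 0 in vector 2, and Cdh5 and Kdr of endothelium were at 0 in vector 1. Krt8 of epithelium (1 of 7 tested), Apoa4 of enterocytes (1 of 6) and Pecam1 of endothelium (1 of 2) also rose in edgeR. Their log2 fold changes were 0.57, 0.91 and 1.93 (adjusted p = 0.0301, 0.0279 and 0.0377, edgeR). None of them passed without vector 1, vector 3, circEZH2_005 sample 2 or circEZH2_005 sample 3. Pecam1 also did not pass without circEZH2_005 sample 1, and it was too low to be fitted in limma. DESeq2 called Krt8, Apoa4 and Pecam1 and also Vil1, Apoa1 and Fabp2 higher. No marker of B and plasma cells passed in edgeR over all 6 samples (2 of 6 at an unadjusted p under 0.05). DESeq2 called Cd79b and Jchain of that list higher, and edgeR without vector 2 called Cd79b. Of the 6 enterocyte markers, 4 had a log2 fold change above 0. Among crypt stem cell markers, Lgr5 and Smoc2 fell by 0.88 and 0.81 on the log2 scale (adjusted p = 0.0434 and 0.0203, edgeR). Ascl2, Olfm4 and Axin2 did not pass in edgeR, with log2 fold changes of -0.68, -0.42 and 0.31 (adjusted p = 0.0921, 0.314 and 0.219). The list summed to 1624 to 2481 CPM in vector and 1130 to 1697 CPM in circEZH2_005 samples. DESeq2 called Ascl2, Lgr5 and Smoc2 lower, and both limma fits called Smoc2 alone. Neither Lgr5 nor Smoc2 passed in edgeR without vector 1, vector 3, circEZH2_005 sample 2 or circEZH2_005 sample 3, and Lgr5 also did not without circEZH2_005 sample 1. Paneth cell markers summed to 3379 to 5900 CPM in vector and 2102 to 3676 CPM in circEZH2_005 samples, and none of the 5 passed in edgeR (1 at an unadjusted p under 0.05), while DESeq2 called Mmp7 lower and limma called none. Vector 2 lay within or near the range of the other vector samples in epithelial, enterocyte and Paneth cell markers, at 0.946, 0.957 and 0.713 times their mean. It was at 1.49 times their mean in crypt stem cell markers, 1.77 in B and plasma cell markers, 1.53 in fibroblast and muscle markers, 1.20 in macrophage and dendritic cell markers and 0.886 in endothelial markers. The crypt stem cell sum was mostly Olfm4, with 2314 of 2481 CPM in vector 2. By gene, vector 2 was at 0.70 (Lgr5), 0.79 (Smoc2), 1.28 (Axin2), 1.33 (Ascl2) and 1.56 (Olfm4) times the mean of the other vector samples.

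**Figure D5:**
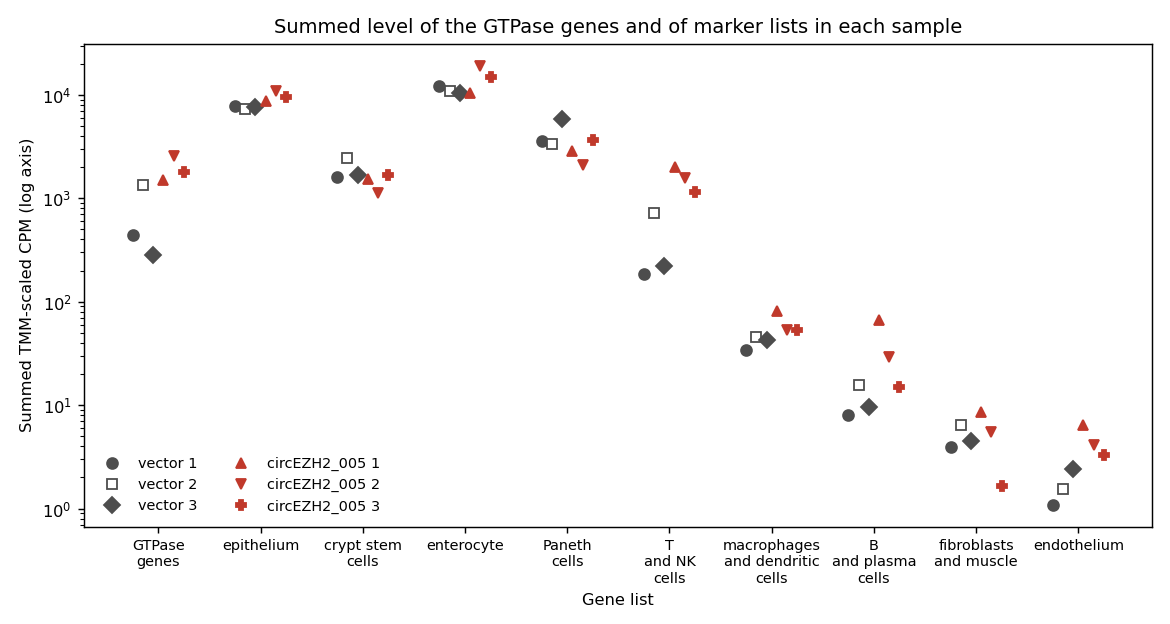
Summed TMM-scaled CPM (log axis) of the 10 GTPase genes and of 9 marker lists in each of the 3 vector samples (grey, vector 2 open) and 3 circEZH2_005 samples (red). Vector 2 stands above vector 1 and vector 3 in the GTPase genes (1357 against 437 and 283 CPM) and in T and NK cell markers (724 against 184 and 221 CPM).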

How the data were processed

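RNA sequencing of polyadenylated RNA was measured in 3 vector and 3 circEZH2_005 samples. For each gene the authors deposited a count of reads per sample, without normalization, and an FPKM value, which they normalized for transcript length and depth. The submitters' processing notes name cutadapt 1.9, HISAT2 2.0.4, StringTie 1.3.4d, DESeq2 and build mm10, and whether counting used strand is not given in the sources used here. The control columns, named as a negative control, were taken as the vector samples because these are the only control group, with the replicate number as given. No column of sample values was left unused (0).

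Genes were filtered with filterByExpr, scaled with TMM and tested in edgeR 4.0.16 (R 4.3.3) by quasi-likelihood, with no covariate. The Benjamini-Hochberg method adjusted p-values over the 18348 genes tested, and standard errors are the log2 fold change over the square root of F. Log2 CPM used a prior count of 2. Calls used an adjusted p under 0.05, or a fold over 2, which the paper uses, with p under 0.05. The alternatives were median-of-ratios and total count scaling, no filter or at least 1 CPM in 3 samples, a replicate block, DESeq2 1.42.0, limma 3.58.1 on log2(FPKM + 1) or log2(FPKM + 0.1) for genes averaging 0.5 FPKM or more, and each sample left out. The fits were also run on simulated counts with the same dispersion for every gene and no deviating vector sample. That run therefore cannot tell how the fits behave with a sample like vector 2.

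The named genes were every GTPase listed, other family genes, tested signalling genes by role, the 3 with the smallest p of each remaining list, and the 8 most like the GTPases in pattern. The result for 1 gene among these is not reported here. Members and lists were chosen with earlier results of these data known. Overlaps and shared 100-base windows came from GENCODE M21. Totals were 71506487 to 79919893 counts per sample, and standard errors rest on the spread between 3 samples per group.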

Additional observations from a re-analysis of the deposited data

How the results depend on the processing

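The log2 fold change of each of the 10 GTPases stayed above 0 in all 14 alternatives. Of their 140 values, 125 kept their side of the adjusted p of 0.05 and 15 came to pass it, 10 of them without vector 2. The number of GTPases past it (0 of 10) became 2 with the replicate block (Gbp6 and Gbp9), 2 with DESeq2, 1 with limma on log2(FPKM + 1), and 0 to 10 when a sample was left out. The number more than 2-fold higher at an unadjusted p under 0.05 (8 of 10) was 3 to 10 when a sample was left out, with 3 without vector 1, vector 3 or circEZH2_005 sample 2. The cause was not tested.

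Over all genes, the 493 called higher at an adjusted p under 0.05 became 132 with no filter, 241 with the block, 1588 with DESeq2, 323 with limma on log2(FPKM + 0.1) and 26 to 1098 when a sample was left out. The 1142 called by fold and p became 347 and 641 with limma on log2(FPKM + 1) and log2(FPKM + 0.1). The 8 interferon pathway genes called higher became 5 with median-of-ratios scaling, 0 with no filter, 15 with the block, 21 with DESeq2, 4 with limma on log2(FPKM + 0.1) and 0 to 35 when a sample was left out, with 0 without vector 1, vector 3, circEZH2_005 sample 2 or circEZH2_005 sample 3. The 1 called lower, Il18, became 0 with the block and 0 to 1 when a sample was left out, with 0 without vector 1, vector 3 or circEZH2_005 sample 3. The 1 other family gene, Gbp8, became 2 with a filter of 1 CPM, 2 with the block, 3 with DESeq2, 3 and 2 with the limma fits, and 0 to 15 when a sample was left out. No log2 fold change of a family gene changed sign.

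Samples of the same replicate number in the labels did not deviate together from their group means, with correlations of -0.136, -0.0234 and 0.0363 over 18348 genes, so the block describes a shared number only. Total count scaling moved the median of all genes by -0.06.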
